A study of Homo sapiens with 6 samples.

Results

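The subject here is the set of METTL3 peaks that the authors called on chromosome 8 of PC3 cells. They were chosen by position alone, as every entry of the PC3 METTL3 list with 8 in its chromosome field, from peaks selected on their own measured enrichment over control, and numbered 692 of 7500. Chromosome 8 was picked with its number of peaks known, so that number is a description. The 4 lists of the series held 10504 entries in all, and the chromosome 8 entries of the other 3 lists, 74 for PC3 PRMT5, 13 for LNCaP METTL3 and 35 for LNCaP PRMT5, were set beside the 692. No member was filtered out, and no member overlapped another.

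PC3 is an androgen-independent human prostate cancer cell line, and LNCaP is an androgen-responsive one. Each line gave 1 library with an antibody to METTL3 (Abcam), 1 with an antibody to PRMT5 (Active Motif) and 1 control library titled IgG, for which the labels name a secondary antibody. All 6 libraries came from untreated cells in the same serum-containing medium, with 100000 cells and 16 PCR cycles each, in an assay in which antibody-tethered Tn5 transposase cuts and tags chromatin in place. Each group is a single library, so the spread between replicates is unknown, all values describe these lists, and every interval covers counting error only. Peak lists hold no expression values, so the identity of the lines could not be checked against marker genes, and the lists carry no measure of DNA copy number. Depth of the libraries is unknown.

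METTL3 is the catalytic subunit of the complex that writes N6-methyladenosine on RNA, and it can be found at chromatin because that mark is placed during transcription. PRMT5 is an arginine methyltransferase that acts on histones and on splicing proteins. Chromosome 8 is one of the chromosomes most often rearranged in prostate cancer, where the short arm is commonly lost and the long arm, which carries the oncogene MYC, is commonly gained.

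Chromosome 8 carried more PC3 METTL3 peaks for its length than any other chromosome. Its 692 peaks made up 9.28% (95% exact binomial interval 8.64 to 9.97) of the 7453 peaks on chromosomes 1 to 22, X and Y, whereas the chromosome takes up 4.70% of their length. The density was 4.77 peaks per Mb, against a median of 2.35 and a range of 0.65 to 4.23 over the 22 other chromosomes without Y. Chromosomes 14, 3 and 10 came next, with 4.23, 4.22 and 4.05 per Mb. In the other lists chromosome 8 held 4.46% of PC3 PRMT5 peaks (3.51 to 5.56), 7.51% of LNCaP METTL3 peaks (4.06 to 12.5) and 3.57% of LNCaP PRMT5 peaks (2.50 to 4.93). By density it stood 11th of 24 chromosomes for PC3 PRMT5, 4th for LNCaP METTL3 and 18th for LNCaP PRMT5. When each list was cut to its 173 peaks of highest fold, the length of the shortest list, the shares were 12.1% for PC3 METTL3 and 2.31% for both PRMT5 lists.

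The excess lay on the long arm. The gene table gives no centromere, so the longest stretch of the chromosome with no annotated gene, 3.01 Mb at positions 43540928 to 46549088 of hg38, was taken as the boundary between the arms. The long arm held 669 of the 692 peaks, 96.7% (95.1 to 97.9), the short arm 20, and the gene-free stretch 3. This was 6.79 peaks per Mb on the long arm (95% exact Poisson interval 6.29 to 7.33), against 0.46 on the short arm (0.28 to 0.71), a ratio of 14.8 (9.49 to 24.4). The other lists showed less contrast between the arms. The long-arm share was 79.7% for PC3 PRMT5 (68.8 to 88.2), 69.2% for LNCaP METTL3 (38.6 to 90.9) and 68.6% for LNCaP PRMT5 (50.7 to 83.1), and the corresponding density ratios were 1.74 (0.97 to 3.30), 0.99 (0.28 to 4.42) and 0.96 (0.45 to 2.18). Requiring a fold of at least 5 lowered the long-arm density of PC3 METTL3 peaks to 3.92 per Mb and left a ratio of 13.1.

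**Figure D1:**
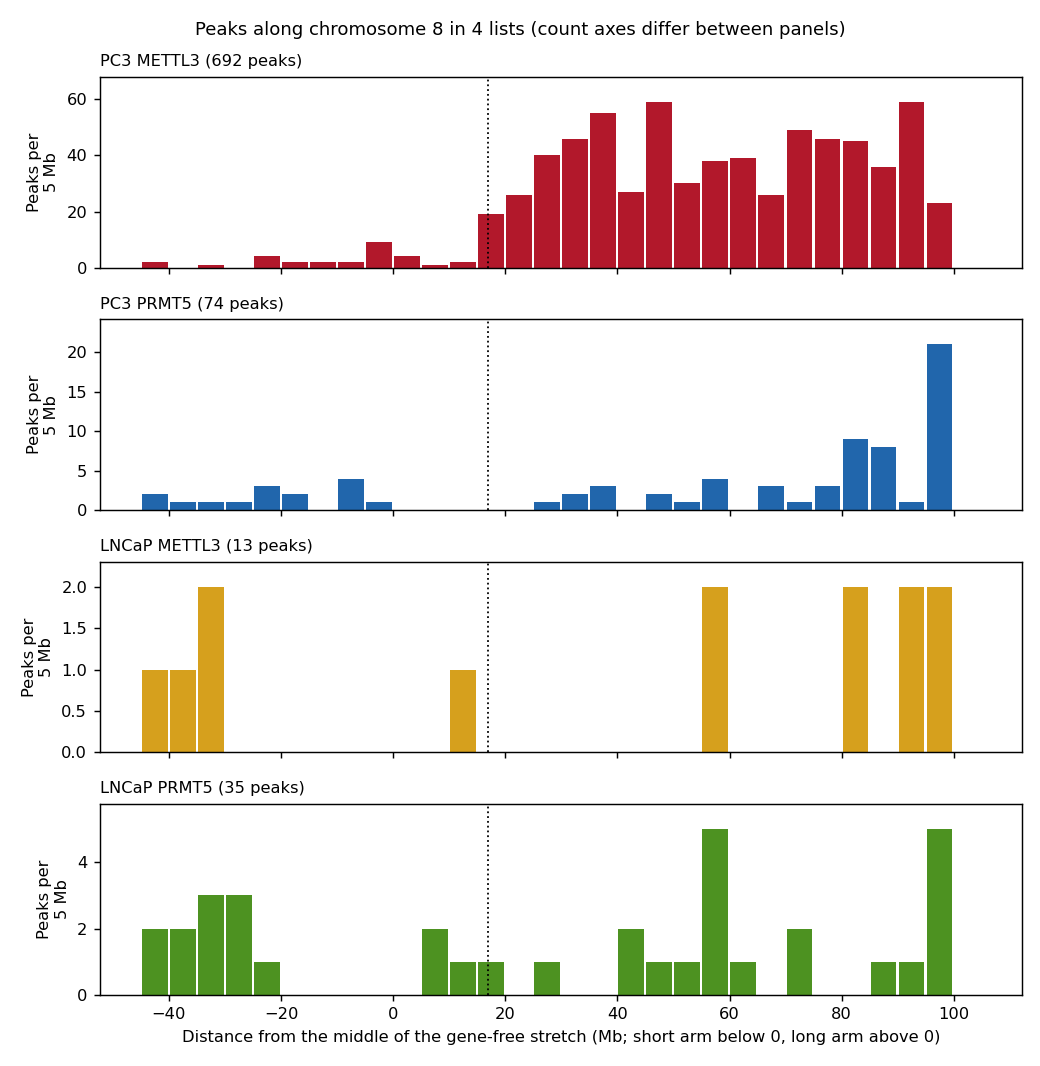
Peaks per 5 Mb of chromosome 8 by distance from the middle of the gene-free stretch, in Mb, with 1 panel for each of the 4 lists and a separate count axis in each. The dotted line marks 62 Mb from the start of the chromosome, after which PC3 METTL3 counts reach 19 to 59 per whole stretch and before which they are at most 9, while no such change is seen in the LNCaP panels.

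Within the long arm the density changed abruptly at first and then more gradually, and the change lay well beyond the centromeric region. In successive stretches of 5 Mb from 55 to 90 Mb the counts were 2, 19, 26, 40, 46, 55 and 27. The single division of 1-Mb stretches that best separated a low from a high Poisson rate fell at 62 Mb, called the step below. Beyond it lay 661 peaks, 7.96 per Mb (7.36 to 8.59), and before it 31, 0.50 per Mb (0.34 to 0.71). The part of the long arm before the step, 15.5 Mb, held 8 peaks, 0.52 per Mb (0.22 to 1.02), which is close to the short-arm density. The last peaks before the step were at positions 58259686, 61421170 and 61577433, and the next 8 began between 62141502 and 62988580. The step was placed on these same peaks, so the contrast across it is a description and was not tested.

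Of the 84 stretches of 1 Mb beyond the step, 68 held at least 5 peaks, 81.0%, and 1, the partial stretch at the chromosome's end, held none. Before the step 1 of 62 held at least 5, 1.61%, and 43 were empty, 69.4%. Over all chromosomes 16.4% of such stretches held at least 5 peaks and 26.3% held none. The count beyond the step ran from 0 to 19 with a median of 7, and its variance was 1.97 times its mean. The densest whole stretches of 5 Mb were those from 90 to 95 Mb and from 135 to 140 Mb, with 59 peaks each, and that from 80 to 85 Mb, with 55. The sparsest were those from 5 to 10 Mb and from 15 to 20 Mb, with none, and those from 10 to 15 Mb and from 50 to 55 Mb, with 1 each.

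A division into 6 stretches refined this picture. PC3 METTL3 peaks numbered 0.14 per Mb from 0 to 22 Mb, 0.70 from 22 to 62 Mb, 7.96 from 62 to 109 Mb, 3.60 from 109 to 114 Mb, 9.46 from 114 to 140 Mb and 4.55 from 140 Mb to the end. The limits were placed on these same counts, so the contrasts between neighbouring stretches are a description. In the same 6 stretches PC3 PRMT5 peaks numbered 0.23, 0.25, 0.28, 0.40, 0.88 and 4.15 per Mb, and LNCaP PRMT5 peaks 0.45, 0.13, 0.23, 0, 0.15 and 0.99. LNCaP METTL3 peaks numbered at most 4 in any of them. With a −log10 q of at least 3 the inner limits became 43, 46, 62, 136 and 139 Mb, so the sparser stretch from 109 to 114 Mb was no longer set apart, while 62 Mb stayed a limit.

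Across the step, the other lists were counted at a position they had not been used to choose. PC3 PRMT5 had 59 peaks beyond it and 15 before it, 0.71 and 0.24 per Mb, a ratio of 2.94 (1.64 to 5.57), whereas PC3 METTL3 had a ratio of 15.9 (11.1 to 23.6). On the nearer sides of the step PC3 PRMT5 had 0.28 per Mb from 62 to 109 Mb and 0.25 from 22 to 62 Mb. The latter stretch spans parts of both arms, and in the 15.5 Mb of long arm before the step PC3 PRMT5 had no peak (0 to 0.24 per Mb). Its own best single division fell at 125 Mb, with 1.86 per Mb beyond it and 0.28 before it. The ratio across 62 Mb was 1.19 for LNCaP METTL3 (0.34 to 4.64) and 1.00 for LNCaP PRMT5 (0.48 to 2.09), so neither LNCaP list showed a change there beyond counting error. At the gene-dense end of the arm, from 140 Mb on, where 104 protein-coding genes begin, lay 23 PC3 METTL3 peaks, 3.32% of those on the chromosome, and 21 PC3 PRMT5 peaks, 28.4% of theirs. Both PC3 lists were called against the same control library.

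**Figure D2:**
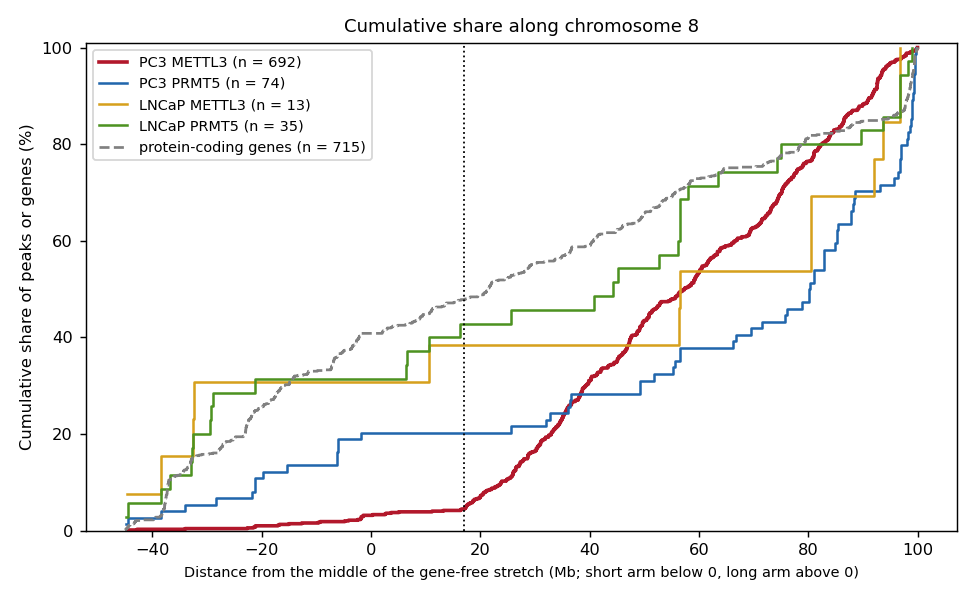
Cumulative share, in percent, of the chromosome 8 peaks of the 4 lists and of the starts of 715 protein-coding genes, by distance from the middle of the gene-free stretch in Mb. The PC3 METTL3 curve stays near 0 up to the step (dotted line) and then climbs unevenly. Its peaks beyond the step number 3.60 to 9.46 per Mb in the stretches of the division into 6. The PC3 PRMT5 curve climbs most steeply at the far end of the long arm.

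Other chromosomes also had unlike sides in PC3. On 19 of 24 chromosomes the best single division left peaks on both sides, and among these the ratio of the denser to the sparser side was highest on chromosome 8. Chromosomes 13, 15, 21 and 22 had 0 peaks before 18, 19, 9 and 10 Mb, so they have no ratio and were not ranked, although their sides are the more unlike. Chromosome Y, with 3 peaks, was not divided. The next highest ratios were on chromosomes 14, 17 and 10. On chromosome 14 PC3 METTL3 peaks numbered 5.65 per Mb beyond 28 Mb and 0.50 before it, on chromosome 17 they numbered 4.81 beyond 43 Mb and 0.65 before it, and on chromosome 10 they numbered 1.5 beyond 81 Mb and 5.72 before it. At the same divisions PC3 PRMT5 peaks numbered 0.93 and 0.29, 3.39 and 0.63, and 0.11 and 1.32 per Mb. On chromosome 14 the best single division of both PRMT5 lists, PC3 and LNCaP, fell at 20 Mb, with 0 peaks before it. How much of the chromosome 14 sequence before 28 Mb can hold a peak was not examined, so its ratio may be inflated. The ratio of variance to mean over 1-Mb stretches was 4.78 on chromosome 8, behind chromosome 10 with 6.36 and level with chromosome 14, also 4.78.

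**Figure D3:**
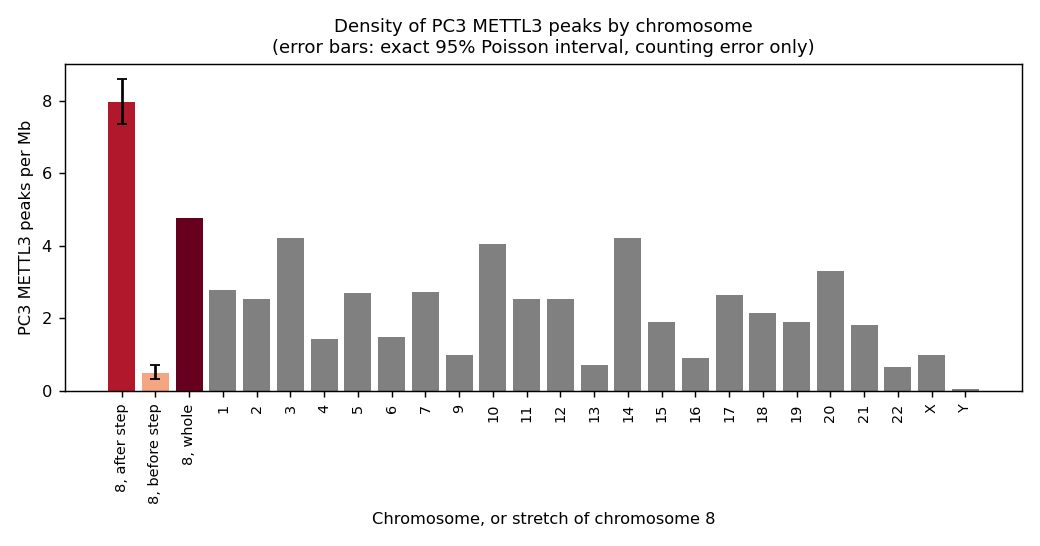
PC3 METTL3 peaks per Mb on chromosome 8, beyond the step, before it and in whole, and on every other chromosome in grey, with exact 95% Poisson intervals on the first 2 bars. The density of 7.96 beyond the step exceeds that of every whole chromosome, and the 0.50 before it is below all but Y.

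Neighbouring peaks beyond the step were spaced by a median of 78.7 kb between summits (quartiles 27.2 and 163 kb), and the widest gap was 1299 kb. Before the step the median was 1256 kb, and the longest gap, 11.4 Mb between summits at 11026619 and 22432936, spanned 66 whole protein-coding genes without a peak. The next longest on the short arm were 8.79 Mb and 4.50 Mb, and the longest on the long arm, 6.08, 3.16 and 2.07 Mb, all lay before the step. Beyond the step 80 of 660 neighbouring pairs lay within 10 kb of each other and 10 within 1 kb.

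In strength the members were close to the rest of the list. The fold over control given by the authors' caller ran from 2.28 to 10.2 over the 692 peaks with a median of 5.16 (quartiles 4.54 and 5.92), against a median of 5.09 (4.47 and 5.92) over the 6761 peaks of the other chromosomes. A fold of at least 5 was reached by 58.1% of the members, against 59.1% of the whole list. The median fold was 5.16 beyond the step and 5.01 before it, and on both arms it was 5.16. The smallest width in the list, 292 bp, was shared by 61.3% of the members, 60.4% of those beyond the step and 80.6% of those before it. All 8 long-arm peaks before the step had that width, with a median fold of 4.55 and a median −log10 q of 2.53. Exactly the same fold as at least 1 other member was held by 447 of the 692. The −log10 q had a median of 3.99 on chromosome 8 and 3.57 on the other chromosomes. The weakest member, at positions 133944031 to 133944322, had a −log10 q of 1.37 and a fold of 3.06, and the next ones, near TBC1D31 and inside OXR1, had 1.4.

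**Figure D4:**
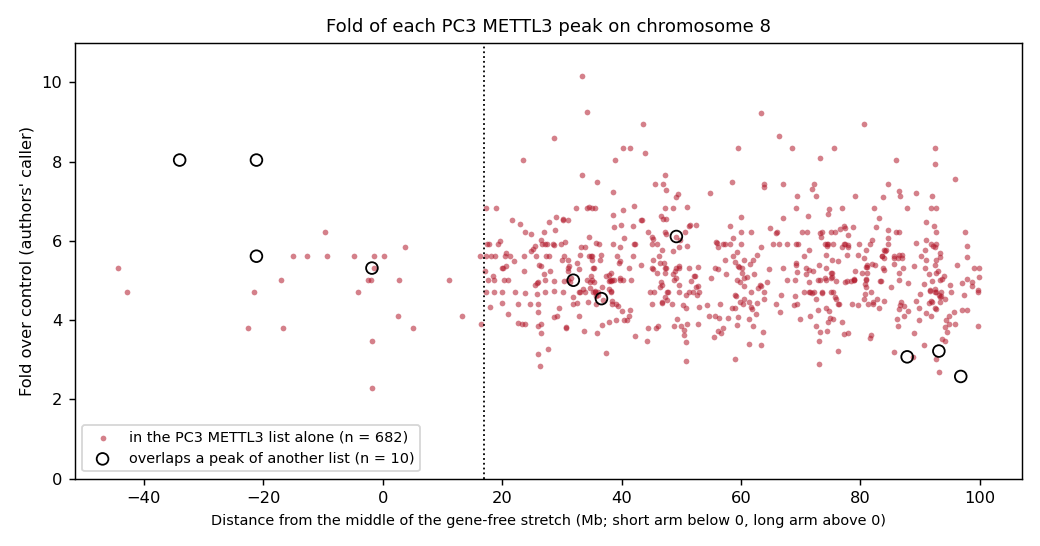
Fold over control of each of the 692 PC3 METTL3 peaks of chromosome 8, by distance from the middle of the gene-free stretch in Mb, with rings around the 10 that overlap a peak of another list. Folds run from 2.58 to 10.2 beyond the step (dotted line) and from 2.28 to 8.04 before it, with 661 points beyond it and 31 before it.

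The 5 highest peaks of the long arm lay far from the ends of protein-coding genes. They were at positions 78434309 to 78434710 (fold 10.2), 81.9 kb from PKIA, which encodes an inhibitor of protein kinase A, at 79261226 to 79261705 (fold 9.25), 350 kb from the neuronal gene STMN2, and at 108397371 to 108397791 (fold 9.22), 46.1 kb from EMC2. The remaining ones were at 125636655 to 125637026 (fold 8.95), 198 kb from TRIB1, and at 88574348 to 88574858 (fold 8.95), 247 kb from MMP16, a membrane-bound matrix metalloproteinase gene. All 5 were absent from the other lists, as were most members, of which 1.45% overlapped a peak of another list. Of the 5, 4 lay inside a noncoding RNA gene. With all gene types counted, 53.3% of the members lay inside a gene, against 35.4% with protein-coding genes only. The share of members inside noncoding RNA genes was not computed, so the 4 have no base to be read against.

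The 2 highest peaks of the short arm had a fold of 8.04. They were at positions 11026459 to 11026857 inside XKR6, and at 23888649 to 23888972, 34.0 kb from STC1, which encodes the secreted glycoprotein stanniocalcin. Both coincided with PRMT5 peaks, as given further on. The next was inside UNC5D (fold 6.22), a netrin receptor gene. After it 5 short-arm peaks were tied at a fold of 5.61. They lay inside NRG1, which encodes a growth factor ligand of ERBB receptors, inside UNC5D, and near SARAF, STC1 and TCIM. A group of 3 peaks at 43237593 to 43241036, 35.0 kb from HGSNAT on the short arm, held the member of highest −log10 q, 62.9, with a fold of 5.31. Its neighbours had −log10 q values of 21.3 and 4.67 and folds of 2.28 and 3.48.

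Few METTL3 peaks of chromosome 8 lay at the ends of protein-coding genes. The table of genes has no strand for this chromosome, so both ends of a gene were counted, and a peak with its summit no farther than 3 kb from one was taken to be at an end. This held for 19 of 692 peaks, 2.75% (1.66 to 4.25), whereas such windows make up 5.06% of the chromosome's length. On the other chromosomes the share was 6.18% (5.62 to 6.78), and over the whole list it was 5.86%. Beyond the step it was 2.72% (1.62 to 4.27), against 4.58% of the length. The share became 0.87% with windows of 1 kb, 6.65% with windows of 5 kb, and 11.0% when genes of every type were counted. PC3 PRMT5 had 9 of 74 chromosome 8 peaks at gene ends, 12.2% (5.71 to 21.8), and LNCaP PRMT5 had 8 of 35, 22.9% (10.4 to 40.1). The shares of those whole lists were 28.6% and 34.1%. LNCaP METTL3 had 1 of 13, with 9.25% in its whole list. The differences were not tested.

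Inside protein-coding genes lay 245 of the 692 peaks, 35.4% (31.8 to 39.1), whereas gene bodies cover 40.3% of the chromosome and 43% of the whole list lay inside genes. From a summit to the closest end of such a gene the median distance was 102 kb. The 1-Mb stretches beyond the step were also ordered by the number of protein-coding genes that touch them and cut into 3 sets of 28. PC3 METTL3 peaks numbered 6.96 per Mb (6.02 to 8.01) in the set with most genes, 8.29 (7.25 to 9.42) in the middle set and 8.65 (7.58 to 9.83) in the set with fewest. PC3 PRMT5 ran the other way, with 1.32 (0.93 to 1.82), 0.50 (0.27 to 0.84) and 0.30 (0.13 to 0.58) per Mb. Over those 84 stretches, which share their libraries, the correlation of METTL3 counts with the number of genes was −0.19 (Pearson) and −0.18 (Spearman), and that of PC3 PRMT5 counts was 0.70 and 0.25. METTL3 and PRMT5 counts of PC3 had a correlation of −0.19 and −0.10. Of the 59 PC3 PRMT5 peaks beyond the step, 21 lay in the gene-dense end from 140 Mb on, against 23 of the 661 METTL3 peaks. Neither the 3 sets nor the correlations were computed without that end.

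The genes that held most peaks all started beyond the step. Of the 715 protein-coding genes of the chromosome, 121 had a summit inside or within 3 kb, 16.9%, against 11.6% of all protein-coding genes. They were 109 of the 373 that start beyond the step, 29.2%, and 12 of the 342 that start before it, 3.51%. RIMS2, which encodes a scaffold of presynaptic vesicle release sites, held 9 peaks over 755 kb. RALYL, which encodes an RNA-binding protein related to hnRNP C, held 8 over 739 kb, and FAM135B held 8 over 368 kb. COL14A1, the gene of collagen XIV, and NKAIN3 held 7 each. The oxidation resistance gene OXR1, SAMD12, CNBD1 and XKR9 held 6 each, and the developmental regulators EYA1 and ZFPM2 held 5 each.

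Ranks after these 11 genes were tied, with 4 peaks in each of 8 genes, and the shortest of the 8 was named because ties were ordered by peaks per Mb of gene. This was ESRP1, a splicing regulator of epithelial cells, with 4 peaks in 66.3 kb, or 60.3 per Mb of gene. RIMS2 had 11.9 per Mb, and all sequence beyond the step 7.96 per Mb. Shorter genes with fewer peaks reached higher values, such as CYP11B2 with 275 per Mb (2 peaks), IMPA1 with 68.0 (2) and CCNE2 with 60.7 (1). The 4 peaks in ESRP1 began at positions 94676439, 94678318, 94692025 and 94699360 and had folds of 5.31, 4.70, 5.37 and 5.85. At least 4 peaks were held by 19 genes of the chromosome, all of them beyond the step, against 0.659% of protein-coding genes overall. Of the 12 named genes none held a peak of either LNCaP list inside it, and 1, FAM135B, held a PC3 PRMT5 peak. XKR9 had a PC3 PRMT5 and a LNCaP PRMT5 peak at an end. Summits inside or within 3 kb were found for 4.59% of all protein-coding genes with PC3 PRMT5, 0.389% with LNCaP METTL3 and 3.08% with LNCaP PRMT5. The 12 genes are too few to be read against those shares.

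Long genes were also counted. Of the 17 protein-coding genes over 500 kb, 11 held a PC3 METTL3 peak, 64.7%, against 74.3% of such genes on all chromosomes. Beyond the step 7 of 8 did, with 2 to 9 peaks each. STK3, a kinase gene of the Hippo pathway, held none, and its nearest summit was 258 kb away. Before the step 4 of 9 did, with 2 peaks in UNC5D and 1 each in NRG1, SNTG1 and CLVS1. CSMD1, the longest gene of the chromosome at 2060 kb, lies on the short arm and had its nearest peak 699 kb away, while its long-arm relative CSMD3, of 1214 kb, held 2.

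**Figure D5:**
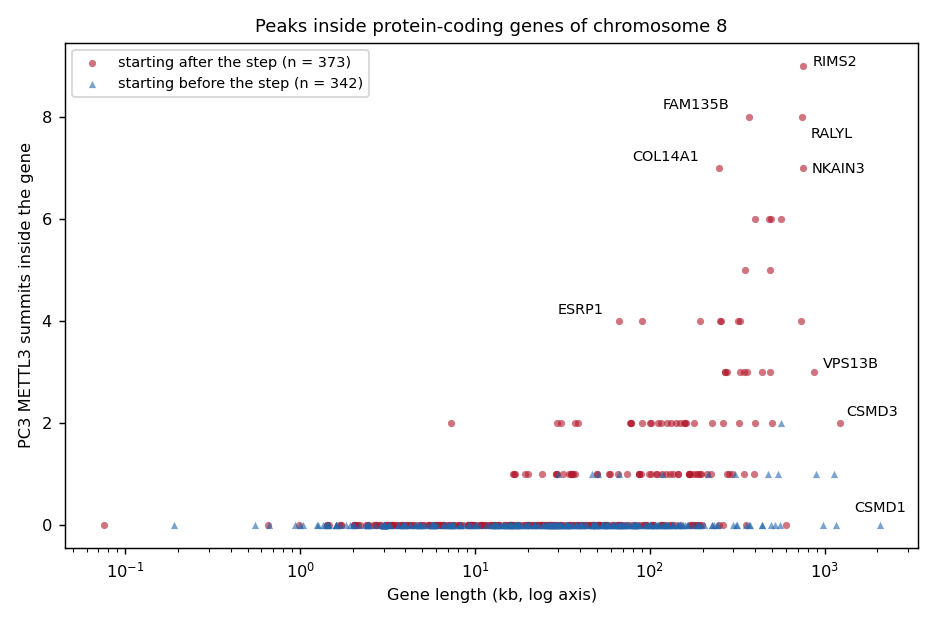
Number of PC3 METTL3 summits inside each of the 715 protein-coding genes of chromosome 8 against gene length in kb on a log axis, for genes that start beyond the step (circles) and before it (triangles). Genes with 3 or more peaks all start beyond the step, and CSMD1, the longest gene, holds none.

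A list of 36 long-arm genes, 4 of them for noncoding RNAs, that are often gained in prostate cancer and a list of 17 short-arm genes often lost there were compared by these counts. All 36 start beyond the step and 16 of them had a PC3 METTL3 summit inside or within 3 kb, 44.4%. Of the 373 genes on that side, which are protein-coding only, 29.2% had one. The noncoding PVT1 is among the 16, and among the 5 given below for PC3 PRMT5, so the gene sets compared are unlike. The listed genes are longer, with a median of 45.9 kb against 31.0 kb. None of the 17 short-arm genes had one, and 12 of the 342 genes before the step did. Another list of 18 genes from the short-arm segment around FGFR1, which is amplified in some tumours, also had none. PC3 PRMT5 summits marked 5 of the 36, 0 of the 17 and 2 of the 18, against 4.59% of all protein-coding genes and 8.58% of the 373 beyond the step. LNCaP PRMT5 summits marked 1, 1 and 0, against 3.08% of all and 3.22% of the 373, and LNCaP METTL3 summits 1, 0 and 0, against 0.389% and 0.80%.

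Among the long-arm genes, RIMS2 led with 9 peaks and EXT1, a heparan sulfate polymerase gene, followed with 4. PTK2, which encodes focal adhesion kinase, held 3. TPD52, LAPTM4B and the transcription factor gene TRPS1 were among those with 2 each. The androgen receptor coactivator gene NCOA2, the metastasis-linked MTDH and the cyclin gene CCNE2 held 1 each, and the CCNE2 peak lay at an end of the gene, where INTS8 overlaps it. MYC held none, and the nearest summit was 55.4 kb away with a fold of 4.54, inside the long noncoding RNA gene PVT1. Within 500 kb of MYC on either side there were 6 PC3 METTL3 peaks, with folds of 4.31 to 6.83. In the same interval there were 3 PC3 PRMT5 peaks, with folds of 4.13 to 5.29, and none of either LNCaP list. All 3 of those PRMT5 peaks lay inside PVT1. Over the stretch from 114 to 140 Mb, which includes MYC, PC3 METTL3 peaks numbered 9.46 per Mb and PC3 PRMT5 peaks 0.88. The METTL3 count around MYC was thus no higher than in that stretch, and neither count was tested.

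The smaller lists hold too few genes for their shares to be read against the 16.9% of all chromosome 8 genes that had a peak inside or within 3 kb. Of the 2 genes of the m6A machinery on the chromosome, VIRMA, which encodes a scaffold subunit of the METTL3 complex, held 1 peak of fold 7.18 at positions 94519973 to 94520327, 32.4 kb from its nearest end. YTHDF3, a reader of the mark, held none, with the nearest summit 11.6 kb away. Of the 8 sterol and steroid genes, 2 had a peak. CYP7B1, an oxysterol hydroxylase gene, held 1 of fold 6.01. CYP11B2, the aldosterone synthase gene, held 2, of fold 5.03 at 142910928 to 142911223 and of fold 5.58 at 142912082 to 142912746. The neighbouring CYP11B1 is a close copy of it, so the assignment of reads between them is uncertain. Of the 8 lysosomal genes only LAPTM4B held peaks, and none of the 25 defensin genes, many of which are near-identical copies, had one. All 25 defensin genes start before the step, where 3.51% of genes had a peak.

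Gene ends with a peak were 17 beyond the step and 1 before it, the zinc transporter gene SLC39A14. They made up 2.52% of the 715 genes, against 2.48% of all protein-coding genes. PC3 PRMT5 peaks lay at the ends of 12 of the 715, LNCaP METTL3 peaks of 1 and LNCaP PRMT5 peaks of 9, against 2.42%, 0.0749% and 1.92% of all protein-coding genes. Summits within 500 bp of an end were found at PARP10, a gene of mono-ADP-ribosylation that overlaps SPATC1 there (0.192 kb, fold 5.32), and at CYP11B2 (0.424 kb).

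Few of these peaks recurred in another list. At least 1 bp was shared with some peak of the other lists by 10 of the 692, 1.45% (0.70 to 2.64), against 2.23% of the whole PC3 METTL3 list. All 10 overlapped a PC3 PRMT5 peak, which is 13.5% of the 74 PC3 PRMT5 peaks, against 8.88% of those on the other chromosomes. Of the 10, 1 overlapped a LNCaP METTL3 peak, 7.69% of the 13, against 9.38% on the other chromosomes. A LNCaP PRMT5 peak was overlapped by 2, which is 5.71% of the 35, against 4.23% on the other chromosomes. These differences were not tested. Of the peaks beyond the step 6 of 661 were shared, 0.91% (0.33 to 1.97), and before it 4 of 31, 12.9% (3.63 to 29.8). The median fold was 5.16 in the 10 shared peaks and in the 682 others.

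The shared peak inside XKR6 had a fold of 8.04 for PC3 METTL3 and 7.95 for PC3 PRMT5. Near STC1, a pair of METTL3 peaks 0.619 kb apart met a pair of PC3 PRMT5 peaks. The stronger had a fold of 8.04 for METTL3, 6.60 for PC3 PRMT5 and 8.26 for LNCaP PRMT5, and the weaker had 5.61 and 6.18 in the PC3 lists. Beyond the step a peak 15.8 kb from GEM, a small GTPase gene, had 6.11 for METTL3 and 9.21 for PC3 PRMT5. Others lay 7.40 kb from the peroxisome gene PEX2 (5.01 and 5.60), in the inositol phosphatase gene IMPA1 (4.54 and 5.71), in the thyroglobulin gene TG (3.07 and 4.19) and in FAM135B (3.22 and 2.56). The peak at 43237593 to 43238251 near HGSNAT had 5.31 for METTL3 and 2.27 for PC3 PRMT5.

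A single region had a peak in all 4 lists, at positions 141871844 to 141872281, 340 kb from TSNARE1. Its folds were 2.58 for PC3 METTL3, 3.21 for PC3 PRMT5, 4.84 for LNCaP METTL3 and 4.98 for LNCaP PRMT5. The PC3 METTL3 fold there was the lowest but 1 of the 692, while its −log10 q was 10.5. Close by, PC3 PRMT5 had a peak at 141873986 to 141874333 that overlapped peaks of both LNCaP lists, with none of PC3 METTL3. The folds were 1.50 for PC3 PRMT5, 3.61 for LNCaP METTL3 and 4.46 for LNCaP PRMT5, with −log10 q values of 2.35, 18.4 and 12.5. Whether the control libraries also have high signal at these places was not tested.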

How the data were processed

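Per the labels' protocols, an in-situ ChIP kit with protein G-Tn5 was used and libraries were read on a NovaSeq instrument. The submitters' processing notes name MACS2 2.1.0, Bowtie 1.1.1, Trimmomatic 0.33, bcl2fastq 2.17, ChIPseeker and the build hg38. Tool settings were not given in the sources used here. The authors deposited 1 peak list per antibody library, called against the control of its line. Each deposited peak carries a score (10 times the −log10 q, rounded down), a fold, which is a ratio over control, a −log10 p, a −log10 q and a summit. Read depth is unknown, so numbers of peaks cannot be set against depth.

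Peaks were placed by summit. Genes came from the RefSeq table of GRCh38.p14, which has the primary chromosomes of hg38. It gives ends but no strand, so start sites, exons, introns and UTRs were not assigned. Densities carry exact Poisson and shares exact binomial (Clopper-Pearson) 95% intervals, and no p-value was computed. The step and the 6 stretches maximise a Poisson likelihood over 1-Mb counts, with stretches of at least 3 Mb. The overlap procedure and the division into 6 were run on simulated data. The simulated counts were Poisson, whereas the counts beyond the step had a variance 1.97 times their mean. The single division that gave the step was not simulated. Named items are the 5 highest peaks per arm, the 3 weakest, the shared peaks, the extreme 5-Mb stretches, the 3 longest gaps per arm, the 12 genes with most peaks and the listed genes. The rule's highest peaks of the other lists are given last. Members, lists and comparisons were chosen with earlier results of these data known. Python 3.11.15, pandas 2.3.3 and SciPy 1.17.1 were used.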

Additional observations from a re-analysis of the deposited data

How the results depend on the processing

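The step stayed at 62 Mb with 2-Mb bins and with a −log10 q of at least 3, and the ratio of long-arm to short-arm density was 13.1 to 17.1 over the alternatives run for it. With a −log10 q of at least 3, the chromosome 8 share of the PC3 METTL3 list was 10.7%, the density 4.70 per Mb on the long arm and 0.28 on the short arm, and the inner limits of the 6 stretches 43, 46, 62, 136 and 139 Mb. With a fold of at least 5, the long-arm density was 3.92 per Mb, and the highest counts were 105 in 20 Mb and 11 in 1 Mb, against 186 and 19 with all peaks. Fewer peaks were kept in both. Lists cut to 173 peaks gave chromosome 8 shares of 12.1% for PC3 METTL3 and 2.31% for each PRMT5 list. Bins that began midway into the original ones gave a lowest count of 7 in 20 Mb, against 3. The share at gene ends was 0.87% with windows of 1 kb, 6.65% with 5 kb and 11.0% with all gene types, and the share inside genes was 53.3% with all gene types, which cover more of the chromosome. No paired analysis was possible because each group has 1 library and the labels give no replicate numbers. The 13 LNCaP METTL3 peaks leave wide intervals, so a modest change along the chromosome would not be detectable in that list.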

Other observations

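The highest chromosome 8 peaks of the other lists did not overlap a PC3 METTL3 peak, as was so for most peaks of those lists. On chromosome 8 an overlap was found for 13.5% of PC3 PRMT5, 7.69% of LNCaP METTL3 and 5.71% of LNCaP PRMT5 peaks. The highest of PC3 PRMT5, of fold 10.9 at positions 70668977 to 70669559, lay 0.01 kb from an end of LACTB2 and beside XKR9, and LNCaP PRMT5 had a peak of fold 12.6 in the same place. XKR9 itself held 6 PC3 METTL3 peaks. The highest of LNCaP PRMT5, of fold 14.6 at 12194182 to 12194521, lay inside FAM86B1, a gene with close copies, so its placement is uncertain. The highest of LNCaP METTL3, of fold 9.54 at 138691674 to 138691944, lay inside the collagen gene COL22A1, which held 3 PC3 METTL3 peaks elsewhere along its length. A pair of LNCaP METTL3 peaks lay inside TRIB1, a pseudokinase gene, with folds of 5.54 and 7.42, while the nearest PC3 METTL3 summit to that gene was 84.7 kb away.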
